A study of Mus musculus with 2 samples.

Results

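Semaphorins are guidance ligands for growing axons and migrating cells, and plexins and neuropilins are their receptors and co-receptors. The 31 genes described here were chosen by name: every protein-coding mouse gene of the Sema3 to Sema7 classes (20 genes), every plexin (9 genes) and Nrp1 and Nrp2, out of 43346 Ensembl genes (21474 of them protein coding) in the deposited gene tables. Their RNA was measured in midbrain of B6NCrl embryos (a substrain of C57BL/6) at embryonic day 15.5. The data are 2 total RNA libraries, and each was made from its own pool of male and female embryos, 78 in replicate 1 and 62 in replicate 2. No genetic change, treatment or second age was part of the design. RNA above 200 nt was purified with the mirVana kit, spike-in RNA was present and 10 ng went into each library. A pool averages many embryos, so embryo-to-embryo variation was not measured.

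Most class 3 semaphorins are secreted and bind a neuropilin, which has a short cytoplasmic tail and works through an A plexin beside it. Classes 4, 5 and 6 span the membrane, class 7 is held by a lipid anchor, and most of these bind plexins directly. Ligand binding releases the GTPase-activating domain inside the plexin, and the growth cone's actin and microtubules are then rearranged through Mical oxidases, cofilin and collapsin response mediators. In the developing midbrain the system is known for steering axons of dopaminergic neurons and of the oculomotor nerve, and class 6 and B plexin signals for positioning cells.

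The tables summed to 38966386 and 40419493 expected counts, of which the 31 genes took 74206 and 76787 (0.195% of the counts on Ensembl genes in each library). The midbrain label was checked on 6 regional transcription factor genes. Otx2 (66.2 ± 0.177 TPM, mean ± SD of the 2 libraries here and below), Pax3 (10.6 ± 1.85), En1 (8.95 ± 1.90), Pax7 (2.97 ± 0.170) and Lmx1b (1.28 ± 0.0990) were all present, and En2 (0.985 ± 0.318) was near 1 TPM. TPM is a length-scaled share of all transcripts in a library, so levels of different genes can be set side by side. The hindbrain genes Hoxa2, Hoxa5 and Hoxb5 were each under 1 TPM on average. Immature neuron markers (Tubb3, Dcx, Stmn2, Gap43) summed to 4150 and 4210 TPM and progenitor markers (Sox2, Nes, Hes5, Vim) to 516 and 462 TPM. Marker sums were 156 and 130 TPM for endothelium, 46.5 and 44.5 for mural cells, 60.3 and 50.7 for microglia, 88.8 and 86.1 for oligodendrocyte precursors, 313 and 275 for meninges and 6008 and 4625 for erythroid cells. In such bulk tissue, fewer cells of a type and less RNA per cell cannot be told apart.

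The family was broadly expressed. Of the 31 genes, 28 (90.3%) stood at 1 TPM or more in each library, beside 62.4% of all protein-coding genes (13401 of 21474). In both libraries, 19 genes reached 10 TPM and 4 reached 50 TPM: the B plexin gene Plxnb2, the class 6 ligand gene Sema6a and the A plexin genes Plxna1 and Plxna3. The median of the 31 was 17.5 and 17.7 TPM in the libraries (17.6 ± 0.163), which is 3.25 ± 0.102 times the median of all protein-coding genes (5.42 ± 0.120 TPM). Summed over the family, TPM was 662 in both libraries; semaphorins gave 338 and 333 TPM, plexins 267 and 267, and neuropilins 57.1 and 62.1. The plexin median (18.9 ± 0.926 TPM) was above the semaphorin median (13.1 ± 0.332 TPM), by 0.54 ± 0.13 on the log2(TPM + 1) scale. This difference was more than its SD between the pools, but mean levels ran from 0.245 to 82.2 TPM among plexins and from 0.610 to 69.8 TPM among semaphorins, and with the 3 lowest genes left out it was 0.25 ± 0.02.

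**Figure D1:**
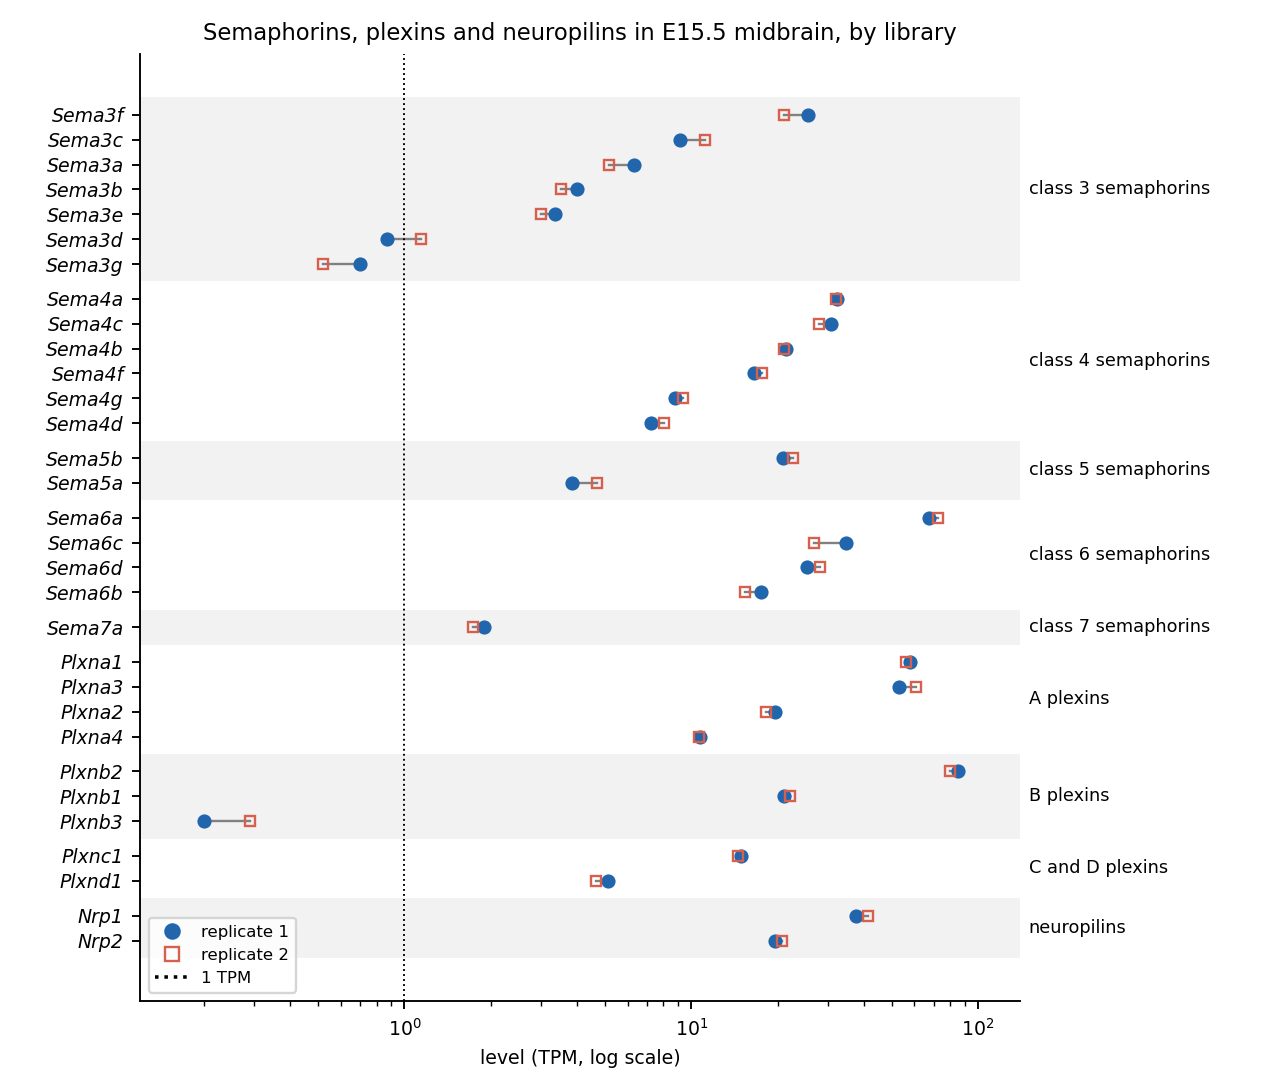
Level in TPM (log axis) of each of the 31 genes in replicate 1 (filled circles) and replicate 2 (open squares), grouped by class and sorted within class; the dotted line marks 1 TPM. Plxnb2 and Sema6a are highest, and only Sema3d, Sema3g and Plxnb3 touch or lie left of the line.

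The secreted class 3 ligands were mostly low, with a class median of 3.76 TPM set by Sema3b. Sema3f, whose protein repels Nrp2-bearing axons, was the highest of the 7, with 25.5 TPM in replicate 1 and 21.0 TPM in replicate 2 (values are given in that order from here on). It made up 48.7 ± 3.45% of the TPM of its class. Sema3c, an attractant for some cortical and dopaminergic axons, followed at 9.11 and 11.1 TPM. Sema3a, the founding collapse factor and ligand of Nrp1, stood at 6.32 and 5.18 TPM. These 3 ligands did not overlap one another across the libraries. The remaining 4 were lower. Sema3b was measured at 4.01 and 3.51 TPM, and Sema3e, which can bind Plxnd1 without a neuropilin, at 3.36 and 2.99 TPM. Sema3d (0.87 and 1.14 TPM) crossed the 1 TPM line between the libraries. Sema3g (0.70 and 0.52 TPM) was below it in both, with 73 and 56 counts.

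Class 4 ligands, which carry an immunoglobulin domain and mostly bind B plexins, were all above 7 TPM, and their median was 19.2 ± 0.251 TPM. Sema4a was the highest at 32.2 and 32.0 TPM. Next came Sema4c, a ligand of Plxnb2, at 30.8 and 28.0 TPM. Over coding transcripts alone Sema4c was above Sema4a in both libraries, at 28.4 and 26.3 TPM against 24.2 and 25.3 TPM. Sema4b reached 21.5 and 21.0 TPM. Sema4f was at 16.5 and 17.7 TPM and Sema4g at 8.79 and 9.33 TPM. The lowest of the 6 was Sema4d, the ligand of Plxnb1, at 7.23 and 8.06 TPM. The highest mean level of class 4 was 4.20 times the lowest, a spread like that of class 6 (4.24 times) and much smaller than that of class 3 (38.1 times).

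The class 5 genes encode ligands with thrombospondin repeats and were unequal. Sema5b, at 20.9 and 22.6 TPM, gave 83.6 ± 1.17% of the class, and Sema5a was at 3.84 and 4.70 TPM. Sema7a, the lipid-anchored ligand of Plxnc1 and of beta1 integrin, was low at 1.89 and 1.73 TPM (141 and 133 counts).

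Over all listed transcripts, class 6 had the highest summed level of the semaphorin classes. Its 4 genes summed to 145 and 143 TPM, 3.02 ± 0.161 times the sum of the 7 class 3 genes. Over coding transcripts alone that ratio was 2.66 ± 0.0865, and class 6 no longer summed above class 4. Sema6a, a transmembrane ligand of Plxna2 and Plxna4 that can also signal through its own cytoplasmic tail, was at 67.4 and 72.2 TPM and gave 48.6 ± 2.90% of the class. Sema6c was at 34.7 and 26.8 TPM, the widest gap in TPM between the libraries among the class. Sema6d, a ligand of Plxna1, was at 25.3 and 28.1 TPM and Sema6b at 17.5 and 15.4 TPM. Libraries of Sema6c and Sema6d overlapped, while Sema6a lay above them and Sema6b below them.

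Among the receptors, A plexins are the signalling partners of neuropilins and bind class 6 ligands directly. Plxna1 (chr6:89316314-89362620, minus strand, GRCm38) was at 58.0 and 56.0 TPM and Plxna3 (chrX:74329066-74344689, plus strand) at 52.9 and 60.8 TPM. Over all listed transcripts their libraries overlapped, and each gene gave close to the same share of the class, 39.8 ± 1.89% and 39.6 ± 3.03%. Coding transcripts alone put Plxna1 above Plxna3 in both libraries, at 57.0 ± 1.43 TPM against 30.3 ± 0.453 TPM. Plxna2 was lower over all transcripts, at 19.5 and 18.2 TPM. Plxna4, a receptor for Sema3a and Sema6a signals, was the lowest at 10.7 and 10.6 TPM. Libraries of these 2 genes did not overlap with each other or with those of Plxna1 and Plxna3.

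B plexins are the main receptors of class 4 ligands. They spanned the whole range of the family. Plxnb2 (chr15:89155549-89180788, minus strand), which is known for roles in neural tube closure and in proliferating and migrating neural precursors, was the highest of all 31 genes at 84.8 and 79.7 TPM, and lay at percentile 90.1 of protein-coding genes. Plxnb1 stood at 21.0 and 22.2 TPM. Plxnb3 (chrX:73757090-73772514, plus strand), known from oligodendrocyte lineage cells, was the lowest of the family at 0.20 and 0.29 TPM, from 24 and 36 counts. The ratio of Plxnb2 to Plxnb3 was 424 in replicate 1 and 275 in replicate 2. Their promoters are shown because they are the extremes of one class. RefSeq (GRCm38.p6) gives the following windows, from 250 bases before to 50 bases after an annotated start, 5′ to 3′ on the gene's strand, with CG dinucleotides in capitals; the first lies at chr15:89180739-89181038 and the second at chrX:73756853-73757152.
Plxnb2: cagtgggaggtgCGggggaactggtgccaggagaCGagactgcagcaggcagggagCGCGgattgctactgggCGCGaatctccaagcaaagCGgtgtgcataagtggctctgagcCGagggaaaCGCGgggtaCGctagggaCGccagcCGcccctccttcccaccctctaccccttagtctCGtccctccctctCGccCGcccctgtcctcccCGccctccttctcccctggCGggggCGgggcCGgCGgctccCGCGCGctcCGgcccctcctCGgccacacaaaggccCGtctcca
Plxnb3: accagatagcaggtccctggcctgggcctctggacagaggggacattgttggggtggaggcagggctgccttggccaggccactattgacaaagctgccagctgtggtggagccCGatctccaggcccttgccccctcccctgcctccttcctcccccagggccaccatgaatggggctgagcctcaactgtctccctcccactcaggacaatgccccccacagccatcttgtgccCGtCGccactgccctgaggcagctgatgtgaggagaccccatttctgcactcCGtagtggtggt
The Plxnb2 window shown holds 27 CG dinucleotides (observed over expected 0.735) and the Plxnb3 window 4 (0.133). Another Plxnb2 window, at chr15:89173902-89174201 and not printed, holds 15 (0.533). This is a description of windows and not of what sets the levels of Plxnb2 and Plxnb3.

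Plxnc1, the receptor of Sema7a, was at 14.9 and 14.6 TPM. Plxnd1, a Sema3e receptor best known from endothelial cells, was at 5.12 and 4.67 TPM, beside endothelial markers between 7.47 (Tek) and 97.7 TPM (Cldn5) on average. What part of Plxnd1 RNA came from vessels was not tested.

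Of the co-receptors, Nrp1 (chr8:128358604-128503363, plus strand) was at 37.5 and 41.4 TPM and Nrp2 (chr1:62703285-62818695, plus strand) at 19.6 and 20.8 TPM. Nrp1 exceeded Nrp2 by 1.95 ± 0.0586 times. Both proteins also bind vascular endothelial growth factors on endothelial cells, so the endothelial markers above apply here too, and the cell source was not tested. Nrp1 had 1 listed transcript, so its soluble forms could not be separated. Nrp2 RNA occurs with either of 2 last exons, which give different transmembrane and cytoplasmic parts. Transcripts with the distal last exon (the A form, chr1:62815333-62818695) took 52.0% and 56.3% of Nrp2 abundance (54.2 ± 3.02%). Those with the proximal last exon (the B form) took 38.0% and 35.8% (36.9 ± 1.56%), and the rest was an intron-retaining transcript. The distal form was thus the higher one in both libraries. The final 30 codons before the stop are shown because the last exons decide the protein's end; they are reference sequence of GENCODE M21 transcripts (GRCm38) at chr8:128502722-128502811, chr1:62815545-62815634 and chr1:62795897-62795986, all on the plus strand, with the last 3 codons in capitals.
Nrp1: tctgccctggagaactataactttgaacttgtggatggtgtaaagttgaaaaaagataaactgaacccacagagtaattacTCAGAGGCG
Nrp2 distal: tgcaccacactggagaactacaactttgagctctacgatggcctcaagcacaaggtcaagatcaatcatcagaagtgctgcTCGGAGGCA
Nrp2 proximal: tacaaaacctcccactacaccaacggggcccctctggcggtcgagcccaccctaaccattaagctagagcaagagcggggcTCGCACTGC
Translated, the last 3 codons of Nrp1 and of distal Nrp2 gave the same 3 residues, and those of proximal Nrp2 did not. That shared end of Nrp1 and of the A form is known as the binding site of the PDZ adaptor Gipc1, whose RNA was at 105 ± 1.98 TPM.

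Nrp2 had further alternative exon sequence. A middle exon has a shorter and a longer form. The longer form, at chr1:62786281-62786316, runs 15 nt further at its 3′ end and adds 5 codons ahead of the membrane. The longer exon is printed with that extension in capitals, followed by a skipped 51-nt exon of the distal form (chr1:62812534-62812584).
Nrp2 longer exon: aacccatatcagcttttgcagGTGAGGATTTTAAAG
Nrp2 skipped exon: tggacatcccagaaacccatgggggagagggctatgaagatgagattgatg
Transcripts with the shorter exon took 48.6% and 63.1% of Nrp2 and those with the longer exon 41.5% and 29.0%, so the shorter one led in both libraries but the split moved by more than that of the last exons. The 51-nt exon was included in 30.4% and 24.4% of the abundance of transcripts able to hold it.

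Exon choice could be read for 3 semaphorin genes as well, counting exons for which the including and the skipping transcripts each took 5% or more of the gene in both libraries. In Sema6a, whose alternative exons lie in coding sequence, a 165-nt exon was included in 59.2% and 49.9% and a 51-nt exon in 23.3% and 14.9% of the transcripts that spanned them. Every one of the 6 exons found, the one of Nrp2 included, is a whole number of codons long. All of these percentages are estimates and carry no counting interval.

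The alternative exons of Sema6d and Sema3f are shown because each adds a run of codons to the ligand in a minority of its RNA. They lie at chr2:124660705-124660761 and chr2:124662204-124662371 on the plus strand and at chr9:107691356-107691448 on the minus strand (GRCm38, GENCODE M21).
Sema6d 57-nt exon: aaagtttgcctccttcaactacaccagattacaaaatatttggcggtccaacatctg
Sema6d 168-nt exon: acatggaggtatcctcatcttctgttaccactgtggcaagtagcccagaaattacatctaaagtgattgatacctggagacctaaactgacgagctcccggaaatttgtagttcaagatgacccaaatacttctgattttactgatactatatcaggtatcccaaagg
Sema3f 93-nt exon: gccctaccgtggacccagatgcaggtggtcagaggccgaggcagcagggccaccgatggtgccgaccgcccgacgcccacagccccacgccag
Inclusion of the 57-nt exon of Sema6d was 35.5% and 33.1%, and of its 168-nt exon 30.2% and 26.1%, and Sema6d-208 (998 codons, 43.7 ± 3.02% of the gene), which holds neither, led. Inclusion of the Sema3f exon, 31 codons in length, was 19.9% and 18.3%. For these genes the skipping form was the more abundant one in both libraries.

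**Figure D2:**
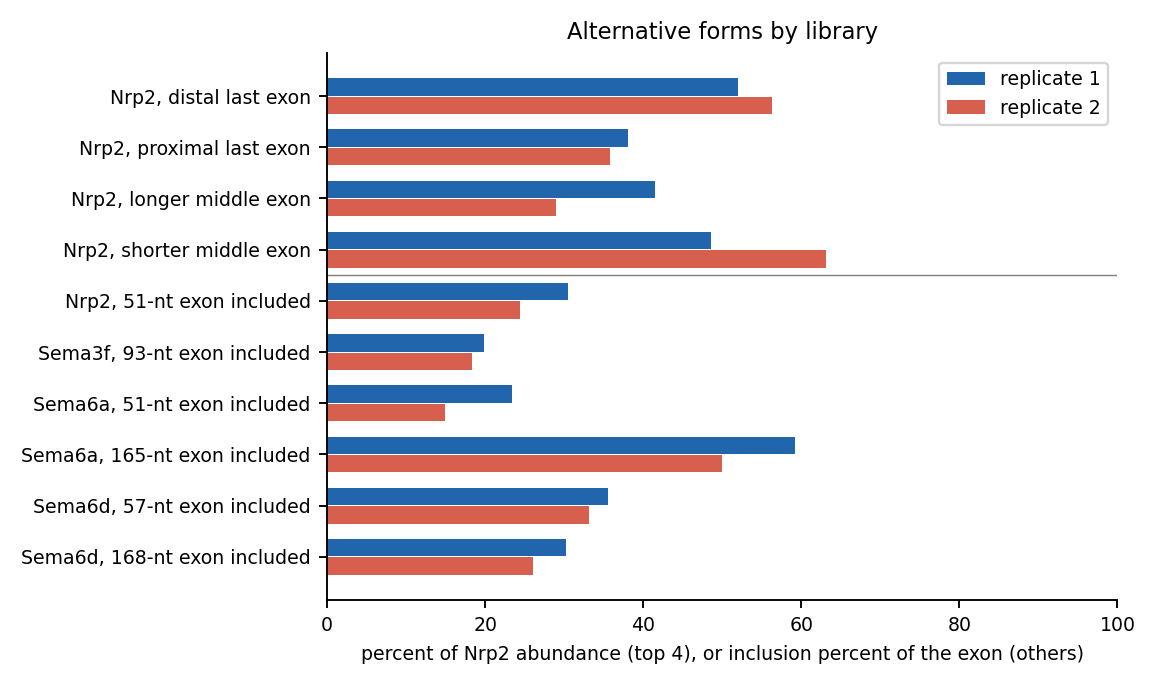
Bars give, for each library, the percent of Nrp2 abundance in transcripts with each last exon and each version of the middle exon (top 4), and the inclusion percent of 6 alternative coding exons (below the line). The distal last exon of Nrp2 is above the proximal one in both libraries, and among the 6 exons only the 165-nt exon of Sema6a passes 50% in a library.

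Across the family, 185 transcripts were listed, 96 of them typed as protein coding in GENCODE M21. Of 25 genes with more than 1 transcript, 22 had the same leading transcript in both libraries, and the leading transcript in replicate 1 was protein coding in 24. The exceptions to the shared lead were Nrp2, Sema3b and Plxnb3. In Nrp2 the lead passed from Nrp2-201 (32.9% and 27.0%) to Nrp2-204 (29.3% and 42.5%). By share of the gene's expected counts Nrp2-204 led in both libraries, with 36.3% and 50.5% against 25.4% and 20.0% for Nrp2-201. The change of lead in Nrp2 thus depends on the measure. In Sema3b it passed from Sema3b-205 (58.3% and 0%) to Sema3b-202 (2.03% and 52.4%), although Sema3b as a whole had 201 and 208 counts. With posterior means the shares were 21.2% and 6.26% for Sema3b-205 and 8.74% and 19.9% for Sema3b-202. The size of this change is therefore uncertain. These 2 transcripts encode the same number of codons (749), so a change of lead leaves the coding length as it is. Plxnb3 was too low to be split.
Some genes were given by nearly 1 transcript. Plxna1-202 took 96.3% and 97.2% of Plxna1, Plxnc1-201 97.9% and 95.3% of Plxnc1 and Sema4f-201 95.1% and 93.4% of Sema4f. Besides Nrp2 and Plxnb2, a second transcript at 20% or more in both libraries was found for 3 genes. They were Sema4a (Sema4a-214 at 29.6% and 36.5%, Sema4a-213 at 26.2% and 25.3%), Sema4c (Sema4c-201 at 39.9% and 40.8%, Sema4c-203 at 24.8% and 26.3%) and Sema4g (Sema4g-201 at 45.6% and 64.3%, the decay-annotated Sema4g-202 at 29.6% and 35.7%). For Sema4a and Sema4c the paired transcripts code for proteins of equal length, 760 and 834 codons.

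The share of abundance in protein-coding transcripts differed between genes and changed the order at the top. It was 90% or more in both libraries for 16 genes and under 60% in both for 3, Plxnb2 (47.8% and 51.3%), Plxna3 (56.7% and 50.3%) and Sema6c (43.3% and 48.7%). For Plxnb2 the difference was mainly Plxnb2-205, an 841-nt transcript without a coding frame, which took 39.0% and 40.7% of the gene's abundance from 8.58% and 8.46% of its counts. A short transcript gains in TPM because its few reads are divided by a small length. Plxna3-203, an intron-retaining transcript of 984 nt, took 14.1% and 14.4% of Plxna3 from 2.95% and 3.32% of its counts. Sema6c had 15.5 ± 3.20% in Sema6c-212, a transcript annotated for nonsense-mediated decay. Sema6a had 17.1 ± 1.15% in the intron-retaining Sema6a-208.
Counted over protein-coding transcripts only, Plxna1 came first at 57.0 ± 1.43 TPM, then Sema6a (41.6 ± 0.651), Plxnb2 (40.7 ± 0.247), Nrp1 (39.4 ± 2.73) and Plxna3 (30.3 ± 0.453). Sema6c moved from rank 7 to rank 18, at 14.0 ± 1.36 TPM. Counts per kilobase of the longest coding transcript gave Plxna1, Plxnb2, Nrp1, Sema6a and Plxna3 as the top 5. That Plxnb2 is the highest of the family therefore holds for all transcripts together and not for coding ones.

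**Figure D3:**
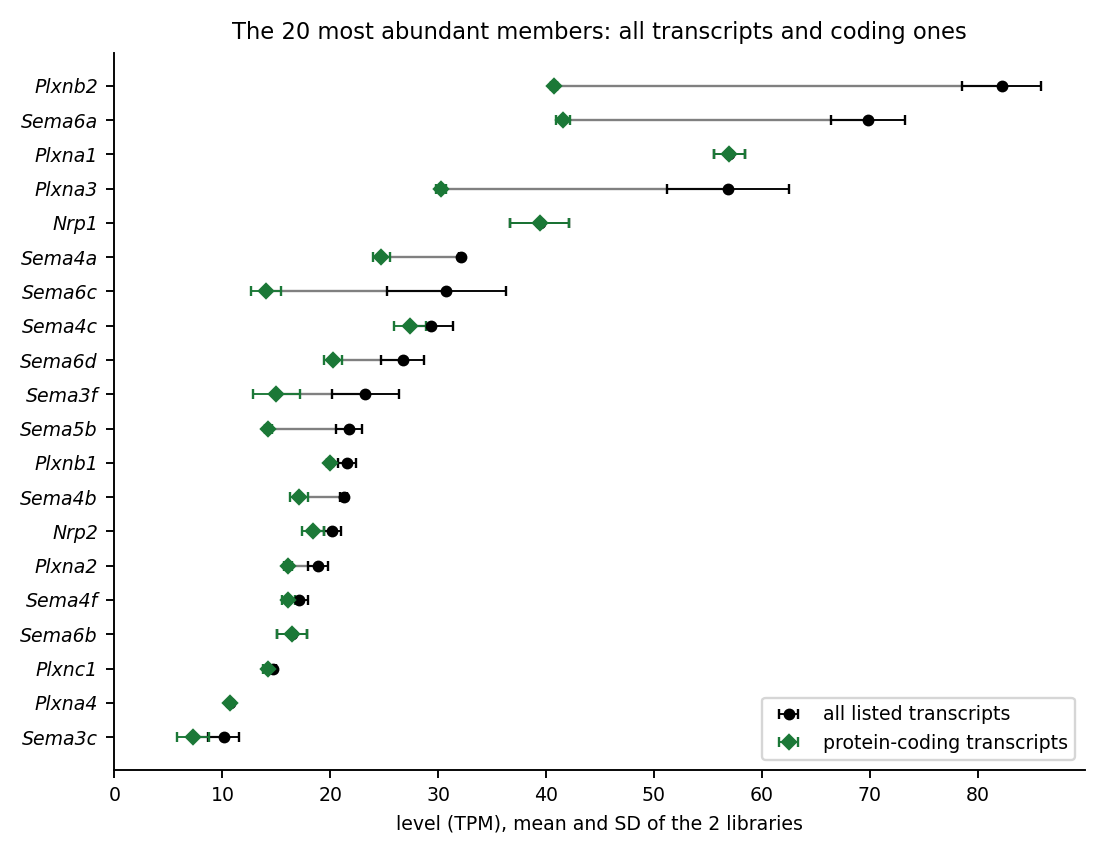
Mean level in TPM (bars, SD of the 2 libraries) of the 20 most abundant genes, over all listed transcripts (black circles) and over protein-coding transcripts only (green diamonds). Plxnb2, Sema6a, Plxna3 and Sema6c lose most, and Plxna1 has the highest green diamond.

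In the order by mean TPM over all transcripts there are 30 neighbouring pairs, and in 17 of them both libraries of the higher gene lay above both of the lower. The other 13 overlapped. Plxnb2, Sema6a, then Plxna1 and Plxna3 together, then Nrp1 formed separate steps at the top. From Sema4a down to Sema4b each of the 8 genes overlapped with its next neighbour, so no order between neighbours can be read there. Sema3e, Sema7a, Sema3d, Sema3g and Plxnb3 were separate steps at the bottom.

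A chosen set of known ligand and receptor pairs, not every known pair, was compared, and partners were present at unequal levels. Nrp1 exceeded its ligand gene Sema3a by 6.96 ± 1.45 times. Plxnc1 exceeded Sema7a by 8.14 ± 0.388 times and Plxna1 exceeded Sema5a by 13.5 ± 2.26 times. Smaller ratios of receptor over ligand were found for Plxnb1 and Sema4d (2.83 ± 0.108), Plxnb2 and Sema4c (2.80 ± 0.0628), Plxna3 and Sema5b (2.61 ± 0.109), Plxna1 and Sema6d (2.14 ± 0.215) and Plxnd1 and Sema3e (1.54 ± 0.0269). In all of these the receptor was the higher gene in both libraries. The reverse held for Sema6a, which exceeded Plxna2 by 3.71 ± 0.364 times and Plxna4 by 6.54 ± 0.356 times; over coding transcripts alone the ratios were 2.59 and 3.90. Sema3f and Nrp2 were close. The receptor was at 0.771 of its ligand in replicate 1 and 0.986 in replicate 2, while coding transcripts alone gave 1.24, so no direction can be given for this pair. For Plxnb2 and Sema4c coding transcripts alone gave 1.49. These ratios compare RNA in whole tissue and say nothing of which cells hold it.

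Levels were next compared between the pools, on rounded counts, by an exact binomial test (two-sided) with Benjamini-Hochberg adjustment over 18269 genes. The test compares these 2 libraries and not conditions. At an adjusted p under 0.05 with a difference of 2-fold or more, 0 of the 31 genes passed, beside a background of 1.55% (283 of 18269 genes). The same count of 0 was found with DESeq2 size factors and with total counts, and 14 of the 31 had an unadjusted p under 0.05 (5487 of all genes tested). All 31 genes lay within 1.5-fold, as did 16778 of the 18269. The median size of the log2 ratio was 0.105 for the family and 0.107 for all genes tested. For the 13677 protein-coding genes within the family's range of counts it was lower, 0.086, and 13318 of them lay within 1.5-fold. The largest ratio, 1.44-fold, was that of Plxnb3, whose 95% counting interval of 0.843 to 2.54 includes equality.
Without the 2-fold condition 8 of the 31 genes passed, beside 19.0% of all genes (3473 of 18269). Higher in replicate 2 were Nrp1 (5087 and 5793 counts, log2 ratio 0.14, adjusted p by the exact test 1.04e-05), Nrp2 (2446 and 2783 counts, 0.14), Sema3c (946 and 1215 counts, 0.31) and Sema5a (960 and 1215 counts, 0.29). Higher in replicate 1 were Sema3f (1488 and 1250 counts, log2 ratio -0.30), Sema3a (707 and 605 counts, -0.27), Sema6b (1486 and 1354 counts, -0.18) and Sema6c (1985 and 1833 counts, -0.16). Marker sums for endothelium, mural cells, microglia, oligodendrocyte precursors, meninges, erythroid cells and progenitors, given above, were higher in replicate 1, and the sum for immature neurons was higher in replicate 2. Single genes went against their sum. Tubb3 (log2 ratio -0.04) passed without the fold condition as higher in replicate 1, and the mural gene Abcc9 (0.27) as higher in replicate 2. The other genes of these lists that passed went with their sum. The midbrain genes summed to 93.8 and 88.2 TPM, and 3 of the 6 passed without the fold condition, all as higher in replicate 1. The part of these in the ratios was not tested. Of the marker genes, Hoxa5, Hoxb5, Alb and Serpina1b passed the 2-fold rule as higher in replicate 1 and Krt5 and Krt14 as higher in replicate 2; the liver markers summed to 7.86 and 0.17 TPM and the skin markers to 0.29 and 9.74 TPM. Against genes of similar count, 27 of the 31 lay inside the middle 90% of log2 ratios. Sema3c and Sema5a lay above it, Sema3f below it, and Nrp1 at its upper edge (0.14 against 0.14). No plexin was among the 8.

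**Figure D4:**
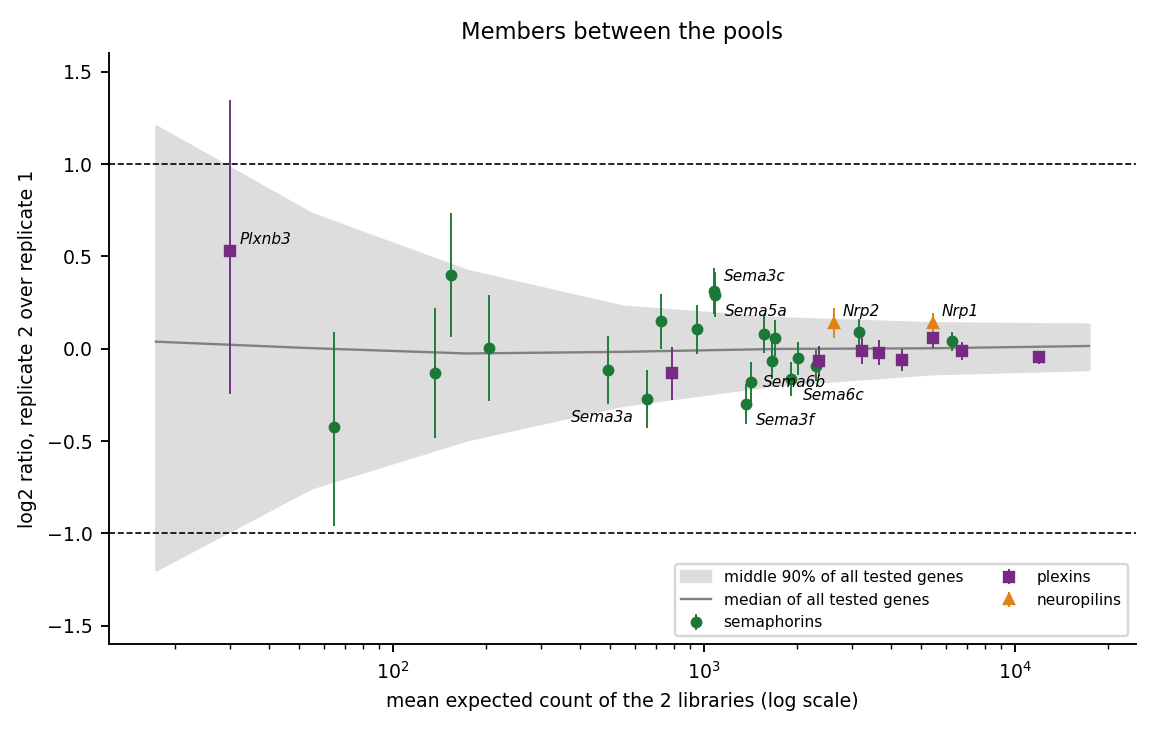
Log2 ratio of replicate 2 over replicate 1 against the mean expected count (log axis) for the 31 genes, with 95% counting intervals as bars; the grey band holds the middle 90% of all tested genes of similar count, and dashed lines mark 2-fold. Every gene lies between the dashed lines, and Sema3c, Sema5a and Sema3f stand outside the band.

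RNA for most of the proteins that act beside plexins was also present. This set and the families below are described by counts and medians only, beside 62.4% and 5.42 TPM for all protein-coding genes. Of 12 genes for receptor-complex partners, 10 were at 1 TPM or more in each library, with a median of 13.2 ± 0.226 TPM. The highest were L1cam (89.9 ± 12.4 TPM) and Chl1 (77.7 ± 6.92 TPM), adhesion molecules that join neuropilin complexes, and the integrin gene Itgb1 (62.9 ± 2.06 TPM). The receptor tyrosine kinase gene Met (0.800 ± 0.0424 TPM) and the Sema4a receptor gene Timd2 (0.185 ± 0.0354 TPM) were below 1 TPM. All 4 other neuropilin ligands passed at a median of 5.17 ± 0.364 TPM, led by Vegfb (38.7 ± 0.481 TPM), Pgf (6.06 ± 0.700 TPM) and Vegfc (4.28 ± 0.0283 TPM).
Intracellular effectors were abundant, with 28 of 28 at 1 TPM or more and a median of 64.9 ± 0.463 TPM. Cofilin (Cfl1, 2423 ± 13.9 TPM), which severs actin, and the collapsin response mediators Dpysl2 (1124 ± 6.26 TPM) and Dpysl3 (1032 ± 11.8 TPM), which bind tubulin, led them. Of the Mical genes, whose enzymes oxidise actin, Mical1 (16.8 ± 1.21 TPM) was the highest and Mical2 (2.03 ± 0.0849 TPM) the lowest of the whole list. In these 3 lists 0 genes passed the 2-fold rule between the pools. Without the fold condition 0 of 4 other ligands, 10 of 28 effectors and 5 of 11 partners tested passed, beside 19.0% of all genes tested.

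Other guidance families were measured in the same libraries. Ephrins and Eph receptors had 21 of 22 genes at 1 TPM or more and a median of 20.6 ± 1.03 TPM, led by Efnb3 (149.9 ± 6.87 TPM), and Slits and Robos had 7 of 7 and 20.1 ± 1.48 TPM, led by Robo2 (75.2 ± 1.68 TPM). For netrins and their receptors the counts were 7 of 9 and the median 10.6 ± 1.12 TPM, led by Dcc (30.5 ± 0.304 TPM). The median of the 31 genes, 17.6 TPM, lay between those of the last 2 families. Summed TPM of the 31 genes, 662 in both libraries, was close to that of the 22 ephrin and Eph genes (672 and 663). Robo3, a receptor of commissural axons, was the only gene of these 3 families to pass the 2-fold rule, at 8.29 and 3.98 TPM; no gene of the semaphorin system did so.

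**Figure D5:**
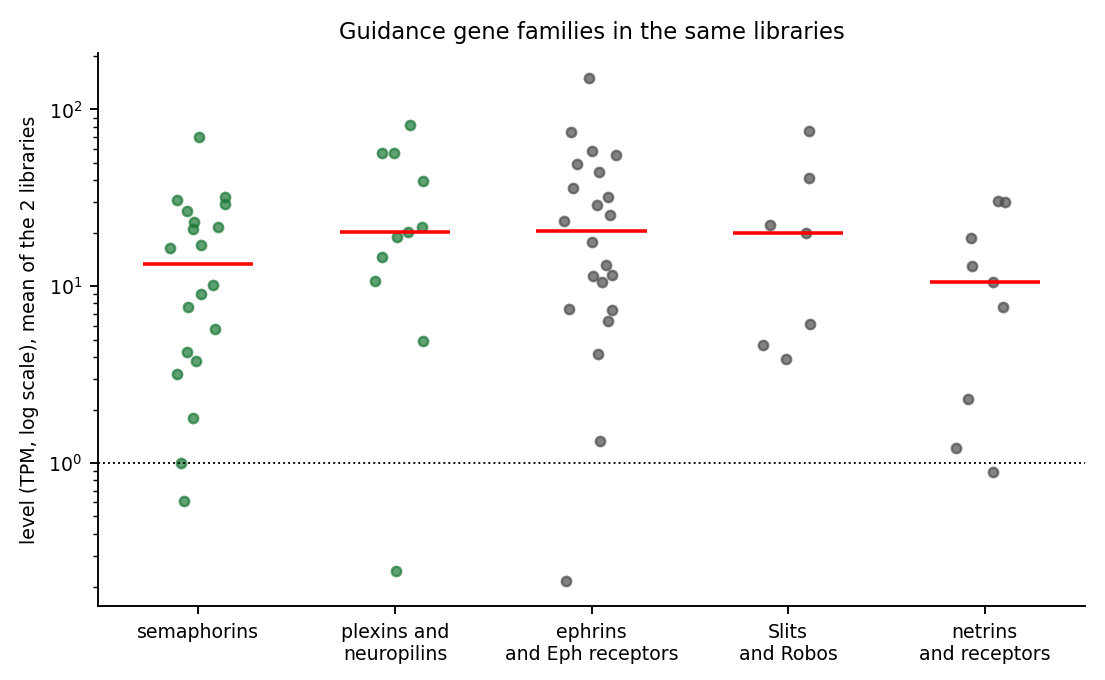
Mean level in TPM of the 2 libraries (log axis) of each gene (points, spread sideways at random) in the semaphorin genes, their receptors and 3 other guidance families; red lines are group medians and the dotted line is 1 TPM. The groups overlap over most of their range, and the lowest point among the receptors is Plxnb3.

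The 31 genes lie on 17 chromosomes. Sema3d, Sema3a, Sema3e and Sema3c lie in that order on chromosome 5 (GRCm38, 12383385 to 17730268), with 536, 423 and 3318 kb between them, and had mean levels of 1.00, 5.75, 3.18 and 10.1 TPM. Sema3b and Sema3f are 72.3 kb apart on chromosome 9, at 3.76 and 23.2 TPM. Plxnb3 and Plxna3 are 557 kb apart on the X chromosome at 0.245 and 56.9 TPM. The family members within each of these groups thus had different levels. Genes outside the family that may lie between them were not looked at. Another annotated gene overlaps 18 of the 31, on the opposite strand for 12, among them Plxna4 with 3 antisense transcripts named Plxna4os1 to Plxna4os3. The counting strand is not given in the sources used here, so for these 12 genes antisense reads may be included. Read assignment between genes was hardly ambiguous. The posterior SD of the count was 0 for 27 genes and at most 0.0663% of the mean, for Sema4c.

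RefSeq promoter windows were found for 26 of the 31 genes, 37 windows in all. By a GC content of 50% or more and an observed over expected CG ratio of 0.6 or more, 18 of the 37 (48.6%) were like CpG islands, against 33.5% of all 32851 windows of the same length. The letters TATAAA, searched on both strands, were in 0 of the 37 windows and in 13.6% of all windows. These are matches of letters in a fixed window and do not describe the promoters beyond it. The set of all windows covers 27025 genes, more than the 21474 protein-coding genes, so it is not limited to protein-coding genes. All 31 family genes are protein coding. Whether their windows differ from those of other protein-coding genes was not tested.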

How the data were processed

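Total RNA libraries from 2 pools of embryonic midbrain were used. Per the labels, the group is 1 tissue at 1 age and the replicate number is the biological replicate. Gene and transcript tables deposited by the authors for both libraries hold expected counts (estimated read counts per gene or transcript), TPM and FPKM, and posterior means of each. The deposited transcript tables also give each transcript's percent of its gene's abundance, per the file headers. Bounds of credibility intervals (TPM and FPKM), per the file headers, were read but support no statement. Notes that the authors deposited with them name mm10 and GENCODE M4; aligner, counter, their versions and strand use: not given in the sources used here.

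Gene IDs without versions were matched to symbols, and types, transcript names and exons came from GENCODE M21 (GRCm38, the build of mm10). Transcript lengths differ between these releases for some transcripts, among them the single Nrp1 transcript and Plxnb2-205. Expected counts were rounded; TMM sizes came from edgeR 4.0.16 and other size factors from DESeq2 1.42.0 in R 4.3.3. Genes averaging 10 or more counts were tested with an exact binomial test in scipy 1.17.1, adjusted over all of them; the log2 ratio adds 0.5 to each count. Counting intervals are 95% and cover counting error only, since PCR copies could not be told apart. The test was tried on simulated counts with known changes. Levels use n = 2, and p-values measure the difference of these 2 libraries. Every one of the 31 genes is accounted for; of other genes the 3 highest of a list, those called between the pools and markers are named, and Met, Timd2, Gipc1, Mical1 and Mical2 were named after their values were seen. The genes and lists were chosen with earlier results of these data known. Ntn3 was not matched and is not analysed here. Alternatives were the threshold, the unit, the scaling, the count filter and each library alone; coding transcripts only and counts per kilobase were added after seeing the data.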

Additional observations from a re-analysis of the deposited data

How the results depend on the processing

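With 2 pools of 1 tissue, spread is known from 2 values only, and isoform shares and low genes (Plxnb3, Sema3g, Sema3b transcripts) are the least certain. The number of genes at the threshold (28) was 30, 27 and 23 at 0.5, 2 and 5 TPM and 28 to 29 under the other settings. The median of 17.6 TPM became 17.3 with posterior means, 21.3 after rescaling over protein-coding genes, 14.4 over coding transcripts only, 10.5 in FPKM and 9.45 in counts per kilobase scaled to library size, the last 2 being other units; single libraries gave 17.5 and 17.7. The plexin median stayed above the semaphorin median under every setting run, by 0.44 to 0.63 on the log2 scale, except 0.25 over genes at 1 TPM or more; single libraries gave 0.44 and 0.63. Calls between the pools numbered 0 of the 31 genes under every setting that kept a fold condition and 8 without it. Over all genes they numbered 283, and 282 with DESeq2 size factors, 282 with total counts, 262 with posterior means, 348 without the count filter, 67 at a mean of 50 or more counts, 506 at 1.5-fold and 3473 with no fold condition. Leading transcripts were shared by 22 genes with posterior means and 23 over coding transcripts; a single library gives no such count. The log2 ratio of Nrp2 over Sema3f turned from -0.20 to 0.30 over coding transcripts; the cause was not tested. No other of the 11 ratios changed sign. No paired analysis was possible because there is only 1 group.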
